A study of Mus musculus with 12 samples.

Results

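Wounds labelled pre-MCS-01 were compared with wounds labelled post-MCS-01, 3 libraries against 3, in a study of 12 RNA-seq libraries from wounded back skin of mice. All groups came from C57BL/6 mice made diabetic with streptozotocin, a toxin of the insulin-producing beta cells. MCS-01, which the labels give by code name only, is a compound meant to stop mast cells from releasing their granules. DSCG commonly stands for disodium cromoglycate, an older drug of that kind, and the blank group served as control. The members, 6 of the 12 libraries, were taken by their treatment label, and the comparison was chosen with earlier results of these data known. They were mouse 3, 4 and 6 for pre-MCS-01 and mouse 21, 23 and 26 for post-MCS-01, with 1 library per mouse. What pre and post refer to is not said in the labels, nor are the dose, the time after wounding or the age of the animals. The 3 DSCG and the 3 blank libraries entered the shared estimate of the spread, and their levels are given as a description only. Blank replicate 3 stood apart by its depth, with 3835042 gene counts against 37702643 to 50461867 in the other 11 libraries. A fit of the 6 compared libraries alone, which leaves it out, called 190 genes higher and 7 lower, against 131 and 3 in the fit of all 12.

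Levels are in CPM, each gene's counts scaled to a fixed library total and adjusted for library composition. Gene counts were 38913019 to 44413720 in the pre-MCS-01 libraries and 37702643 to 42935324 in the post-MCS-01 libraries. A count of 0 therefore allowed up to 0.0689 to 0.0852 CPM (3 counts) in these 6. Skin markers were abundant in both groups: the basal keratin Krt5 stood at 7698, 6225 and 4978 CPM in pre-MCS-01 and 5091, 7282 and 5272 CPM in post-MCS-01, and the collagen gene Col1a1 at 4834, 4529 and 30879 CPM against 16314, 8263 and 20842 CPM. Replicate 2 of pre-MCS-01 differed in transcript length: Spearman's rho between a gene's exon length and its deviation from the average library was -0.385 across genes, given as a description because genes are not replicates. The other 5 libraries of the comparison lay between -0.0558 and 0.337. The hair gene results are therefore also summarised without that library.

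A hair follicle is a ring of epithelial layers around a growing shaft. Matrix cells at its base divide beside the dermal papilla, a knot of mesenchymal cells that signals to them, and their daughters become either the shaft or the inner root sheath that moulds it. The shaft is built of type I and type II hair keratins bound together by small keratin-associated proteins (Krtap genes). The inner root sheath has keratins of its own and is hardened by trichohyalin. These genes are active while a follicle grows (anagen) and silent while it rests (telogen), and pigment cells of the follicle make melanin in the growth phase only.

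The difference between pre-MCS-01 and post-MCS-01 wounds was dominated by these structural genes. Of the 16267 genes tested, 131 were higher in pre-MCS-01 at an adjusted p under 0.05 (0.805% of genes) and 3 were lower (0.0184%), together 0.824%. The 5 lists of hair shaft and root sheath genes held 86 counted genes, 85 of which had enough counts to be tested. These lists, too, were chosen with earlier results of these data known. Here and below, a gene that rose was higher in pre-MCS-01 at that threshold, which does not say which group changed. Of these 85, 73 rose, and their adjusted p lay in the same narrow band as all 134 calls, 0.0313 to 0.0495. The median log2 fold change of the 85 was 9.33, against 0.03 for all genes tested. DESeq2 called 81 of the 85, against 2.04% of all genes called higher. In 83 of the 85 the 3 pre-MCS-01 libraries lay above the 3 post-MCS-01 libraries, against 10.7% of all genes.

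The share of all gene counts that fell in the 86 hair genes was 1.74%, 5.04% and 1.76% in the pre-MCS-01 libraries. In the post-MCS-01 libraries it was 0.0511%, 0.0713% and 0.0355%. The groups did not overlap, and the lowest pre-MCS-01 share was far above the highest post-MCS-01 share. The DSCG libraries held 0.286%, 5.06% and 5.82%, and the blank libraries 2.92%, 1.05% and 1.18%. Post-MCS-01 was thus the group with the low share, and 1 DSCG library lay between it and the rest. In 77 of the 85 hair genes all 9 other libraries of the study lay above all 3 post-MCS-01 libraries, against 3.3% of all genes tested.

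**Figure D1:**
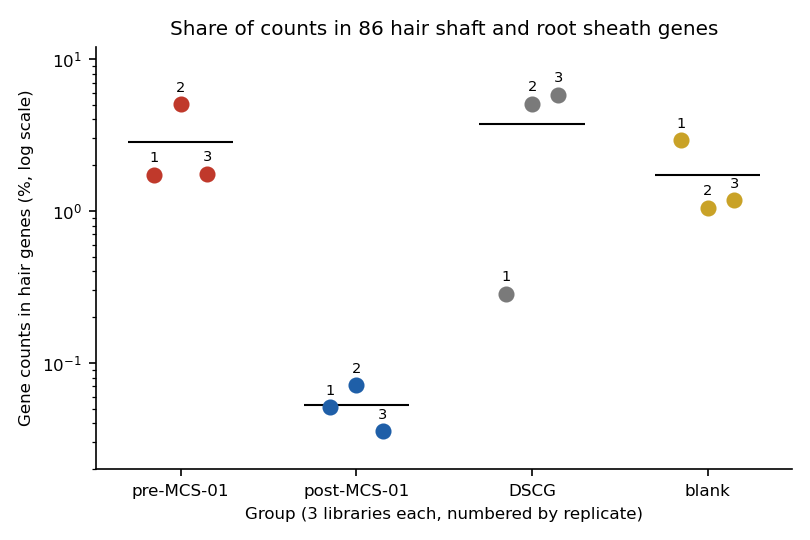
The y axis gives the percentage of all gene counts in 86 hair shaft and root sheath genes on a log scale, with 1 point per library numbered by replicate and a line at the group mean. The post-MCS-01 libraries lie between 0.0355% and 0.0713%, below the 9 others, and pre-MCS-01 replicate 2 lies above the other 2 libraries of its group.

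Replicate 2 of pre-MCS-01 was the highest of its group in 84 of the 86 hair genes. Its level over the mean of replicates 1 and 3 had a median of 5.85 for the 37 hair genes of up to 1000 bases of exon, 3.99 for the 30 of 1001 to 2000 bases and 2.84 for the 17 above 2000 bases. Over all genes tested the same ratio was 1.67, 1.40 and 0.929. Hair genes of every length class thus stood higher in replicate 2, by more than the trend over all genes. Without that library no gene passed in the edgeR test (lowest adjusted p = 0.0682). In both directions together, 900 genes then had an unadjusted p under 0.05. For the hair genes the median log2 fold change was then 8.13, with 84 of 85 positive and 81 at an unadjusted p under 0.05. Replicates 1 and 3 alone lay above all 3 post-MCS-01 libraries in 83 of the 85. That already follows from the 83 genes whose groups did not overlap, so it adds no support. The share of all genes was not computed for it.

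**Figure D2:**
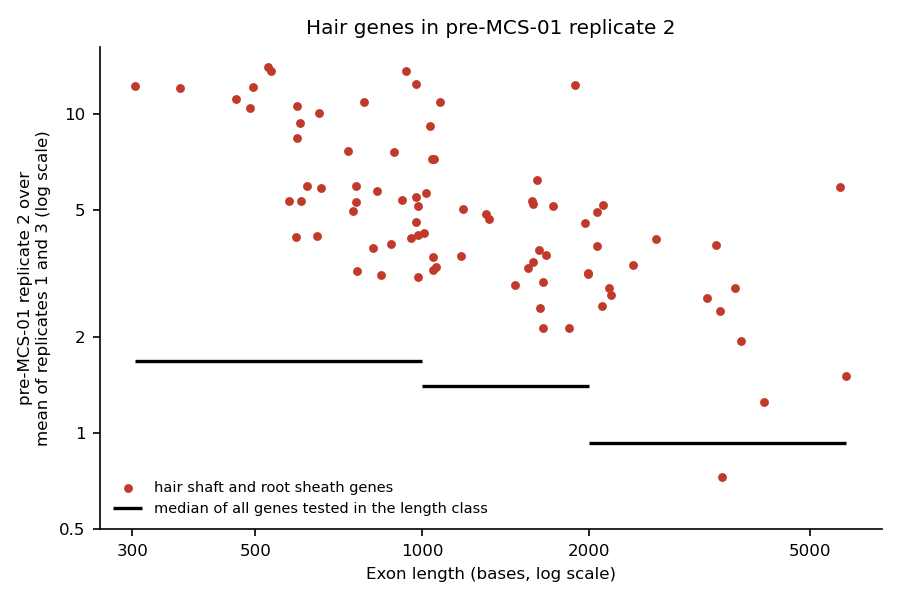
Each point is 1 hair shaft or root sheath gene, with its exon length in bases on the x axis and, on the y axis, its CPM in pre-MCS-01 replicate 2 over the mean of replicates 1 and 3, both on log scales. Black lines mark the median over all genes tested in each length class (1.67, 1.40 and 0.929). Nearly all hair genes lie above those lines, and the ratio is larger for short genes.

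In what follows, 3 levels are given in the order of the replicates, and a bare value with its error in parentheses is the log2 fold change of pre-MCS-01 over post-MCS-01 with its SE. All 9 type I hair keratins, the acidic partners of the shaft's keratin filaments, rose, with a median log2 fold change of 10.25 (8.99 without replicate 2). Krt31, a keratin of the hair cortex (chromosome 11, 100046646 to 100050551), stood at 132, 530.1 and 177 CPM in pre-MCS-01 and 0.504, 0.0240 and 0.161 CPM in post-MCS-01. Krt35, an early keratin of the matrix and cuticle, stood at 250.2, 837 and 249 CPM against 0.655, 0.0720 and 4.82 CPM (log2 fold change 7.90 ± 1.50 SE, adjusted p = 0.0383). Both genes were at trace level in post-MCS-01, apart from Krt35 in replicate 3 of that group. Krt33b had no count at all in replicate 2 of post-MCS-01: it stood at 92.0, 555 and 121 CPM against 0.353, 0 and 0.161. The DSCG and blank libraries held 16.8 to 499 CPM of Krt31 and 48.3 to 776 CPM of Krt35.

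The type II hair keratins, the basic partners, had a median log2 fold change of 9.19 over 6 genes, and 5 of them rose. Krt81 (chromosome 15, 101459061 to 101463751) stood at 94.3, 556 and 121 CPM in pre-MCS-01 and 0.328, 0 and 0.0230 in post-MCS-01, a log2 fold change of 11.11 ± 1.74 (SE) that was 9.85 without replicate 2. Krt82, a keratin of the hair cuticle, stood at 20.7, 89.7 and 50.9 CPM against 0.0756, 0.120 and 0.0459 CPM (9.33 ± 1.28). Krt85, which is made early in the matrix, stood at 49.4, 285 and 47.9 CPM against 0.302, 0 and 0.413 CPM (9.04 ± 1.59). The exception was Krt84, a type II keratin better known from the tongue. It stood at 12.2, 46.3 and 10.8 CPM against 4.56, 5.61 and 3.21 CPM, so it did not reach trace level in post-MCS-01, and its log2 fold change of 2.37 ± 0.71 did not pass (adjusted p = 0.239).

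All 8 keratins of the inner root sheath rose, and they included the 3 hair genes with the highest levels per length. Krt71 (chromosome 15, 101733949 to 101743109) stood at 4561, 11212 and 3714 CPM in pre-MCS-01 and 20.7, 0.0720 and 21.3 CPM in post-MCS-01. Krt25 stood at 1737, 4924 and 1362 CPM against 5.97, 0.0720 and 12.99 CPM, and Krt27 at 1396, 4167 and 1149 CPM against 11.0, 1.01 and 7.09 CPM. In all 3 genes post-MCS-01 replicate 2 was the lowest of all 6 libraries. The log2 fold changes were 8.85 ± 1.76, 8.72 ± 1.65 and 8.46 ± 1.37 (SE, adjusted p = 0.0454, 0.0383 and 0.0313). Summed over the 8 keratins, the level was 7020.2 to 22972 CPM in pre-MCS-01 and 2.64 to 57.6 CPM in post-MCS-01. Per kilobase of exon, Krt71 led the 85 hair genes with a known length in pre-MCS-01 at 2972 ± 1878 CPM per kb (SD, n = 3), ahead of Krt27 at 1443 and Krt25 at 1344.

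Among the other proteins of the root sheath and cuticle, 8 of 11 rose and the median log2 fold change was 6.95. Tchh, the gene of trichohyalin, stood at 4247, 7243 and 5346 CPM in pre-MCS-01 and 42.4, 27.0 and 24.97 CPM in post-MCS-01 (7.48 ± 1.10, adjusted p = 0.0313). Padi3, an enzyme that modifies trichohyalin, stood at 229, 541 and 220.1 CPM against 1.39, 0.384 and 2.23 CPM (7.95 ± 1.17). S100a3, a calcium-binding protein of the hair cuticle, stood at 408, 2637 and 488 CPM in pre-MCS-01 and 2.09, 0.864 and 2.69 CPM in post-MCS-01 (9.29 ± 1.47). Crym, which binds thyroid hormone, stood at 105, 372 and 87.1 CPM against 1.13, 0.576 and 1.56 CPM (7.42 ± 1.19). Dsg4 encodes the desmosomal cadherin that holds hair shaft cells together, and it did not share the high value of replicate 2. It stood at 15.2, 14.5 and 24.8 CPM in pre-MCS-01 and 0.151, 0.0720 and 0.207 CPM in post-MCS-01, with a log2 fold change of 6.95 ± 1.15, or 7.09 without replicate 2.

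The other 3 members of that list did not pass. Tgm3, the transglutaminase that cross-links both the inner root sheath and the upper epidermis, stood at 198, 188 and 102 CPM in pre-MCS-01 and 113, 272 and 110.2 CPM in post-MCS-01, overlapping and with a log2 fold change of -0.02 ± 0.46 (adjusted p = 0.989). Krt75, a keratin of the companion layer between the sheaths, stood at 412, 917 and 279 CPM against 60.5, 59.8 and 32.3 CPM (3.40 ± 0.89, adjusted p = 0.157). Psors1c2 had a log2 fold change of 1.25 ± 0.67 (adjusted p = 0.564), and its groups overlapped.

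The Krtap genes formed the largest list, with 52 genes counted and 51 tested, all with a higher fitted level in pre-MCS-01. Of these, 43 rose and the median log2 fold change was 9.92, or 9.59 when the 7 genes at 0 counts in post-MCS-01 were set to their lower bound. Krtap11-1 stood at 133, 562 and 132 CPM in pre-MCS-01 and 0.176, 0.0720 and 0.161 CPM in post-MCS-01 (10.95 ± 1.57, and 9.89 without replicate 2). Krtap19-3 showed the excess of replicate 2 plainly, at 38.5, 579 and 44.5 CPM against 0.227, 0 and 0.0689 CPM. Its log2 fold change was 11.11 ± 1.92 with that library and 8.70 without it. Among the named genes, 3 were at 0 counts throughout post-MCS-01: Krtap5-4 was at least 766-fold, Krtap24-1 at least 655-fold and Krtap5-3 at least 378-fold higher, taking 3 counts over the whole post-MCS-01 group as the floor.

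Krtap genes stand in clusters on 4 chromosomes, and every cluster took part. On chromosome 7 (142174535 to 142304594) all 5 genes rose, with a median log2 fold change of 11.55. On chromosome 10 all 3 rose (median 10.30), on chromosome 16 (88610705 to 89571183) 18 of 21 rose (10.33), and on chromosome 11 (99550130 to 99993994) 17 of 22 rose (9.44). Members of a cluster share much of their sequence, and reads that fit several genes were not counted, so the levels of near-identical copies are uncertain. Krtap14 and Krtap15 overlap on opposite strands, and without a stated strand setting their reads cannot be told apart.

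**Figure D3:**
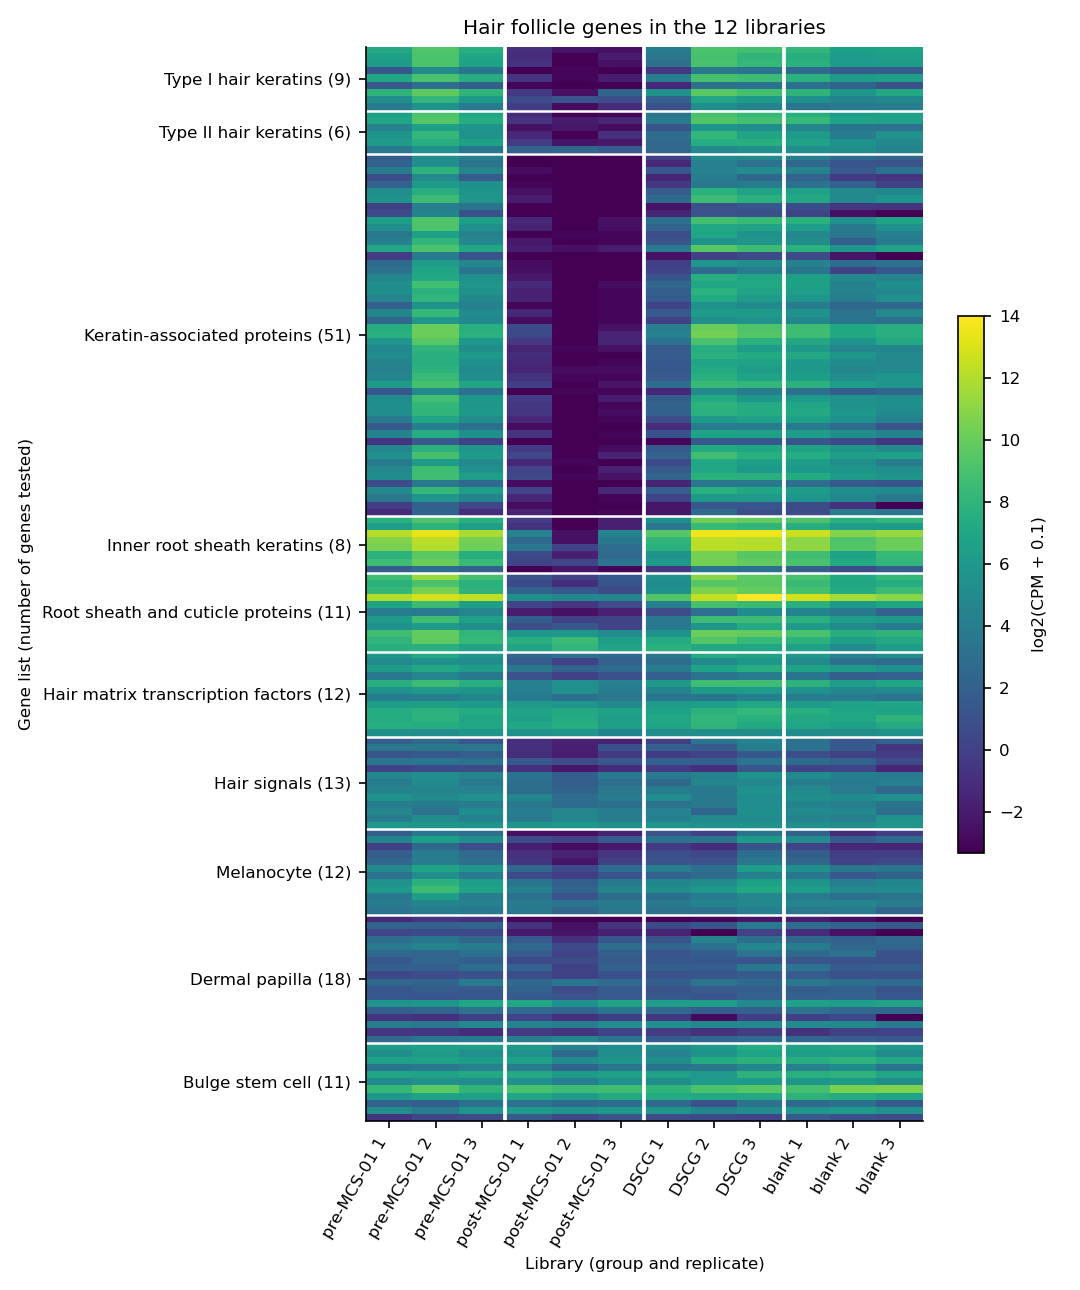
Rows are genes of 10 hair follicle and pigment lists (the number tested in parentheses) and columns are the 12 libraries, with colour giving log2(CPM + 0.1). Within a list, genes are ordered by their fold change. The 3 post-MCS-01 columns are dark over the shaft and root sheath lists, DSCG replicate 1 is intermediate, and the contrast fades towards the dermal papilla and bulge lists at the bottom.

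The promoters of 5 genes, which were not picked by a rule, are shown as examples of genes that moved together. They were taken from RefSeq on GRCm38.p6 and cover the 250 bases before the first start that RefSeq lists for the gene, 5′ to 3′ on the gene's strand. The gene spans given elsewhere come from GENCODE, whose start differs in 2 of the 5: the Krt71 window runs slightly into its span, and the Krtap15 window lies within the longer span of that gene. Krt31 (chr11:100050552-100050801, reverse strand) and Krtap15 (chr16:88828759-88829008, forward strand) are shaft genes, and Krt71 (chr15:101743098-101743347, reverse strand) and Tchh (chr3:93442080-93442329, forward strand) root sheath genes. Lyg2 (chr1:37916494-37916743, reverse strand) is a gene outside the hair lists that rose with them. Capitals mark the TATA box motif TATAAA and the motif CTTTGAA, the core bound by LEF/TCF factors, or its reverse complement TTCAAAG.
Krt31: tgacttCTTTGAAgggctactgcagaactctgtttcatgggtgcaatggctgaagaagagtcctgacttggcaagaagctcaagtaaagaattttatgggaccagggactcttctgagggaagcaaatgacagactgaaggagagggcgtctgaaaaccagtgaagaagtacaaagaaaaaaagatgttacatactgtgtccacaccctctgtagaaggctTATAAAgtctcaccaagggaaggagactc
Krtap15: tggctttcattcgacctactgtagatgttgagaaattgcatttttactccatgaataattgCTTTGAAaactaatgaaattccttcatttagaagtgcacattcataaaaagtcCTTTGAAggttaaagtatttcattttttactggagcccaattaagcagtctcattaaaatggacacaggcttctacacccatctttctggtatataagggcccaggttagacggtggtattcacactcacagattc
Krt71: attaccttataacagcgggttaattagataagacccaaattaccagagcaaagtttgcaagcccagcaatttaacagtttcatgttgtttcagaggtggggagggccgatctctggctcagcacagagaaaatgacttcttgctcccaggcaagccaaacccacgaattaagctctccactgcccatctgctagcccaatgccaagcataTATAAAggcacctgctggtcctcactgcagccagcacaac
Tchh: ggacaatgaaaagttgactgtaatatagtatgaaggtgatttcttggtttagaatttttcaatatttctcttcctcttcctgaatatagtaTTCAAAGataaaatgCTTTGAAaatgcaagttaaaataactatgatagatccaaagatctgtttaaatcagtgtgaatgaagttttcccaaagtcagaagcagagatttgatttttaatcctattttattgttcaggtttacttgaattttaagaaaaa
Lyg2: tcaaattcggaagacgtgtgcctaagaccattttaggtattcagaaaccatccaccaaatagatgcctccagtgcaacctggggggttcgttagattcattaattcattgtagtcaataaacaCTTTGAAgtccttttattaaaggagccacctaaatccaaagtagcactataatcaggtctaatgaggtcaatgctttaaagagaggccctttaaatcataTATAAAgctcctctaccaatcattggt
TATAAA begins 29 bases before the RefSeq start in Krt31, 40 in Krt71 and 27 in Lyg2. CTTTGAA begins 244 bases before it in Krt31, 189 and 136 in Krtap15, 127 in Lyg2, and 144 in Tchh, which also holds the reverse complement. On either strand, TATAAA was in 54 of the 72 hair gene promoters in the RefSeq table (75.0%), against 8.13% of the 12062 tested genes found there. On the gene's strand at 45 to 20 bases before the start it was in 41 of 72 (56.9%) against 2.47%. CTTTGAA on either strand was in 13 of 72 (18.1%) against 3.54%, with 5 of those 13 among the 7 type I hair keratins found. It was in 7 of 47 Krtap promoters and 1 of 9 promoters of other root sheath and cuticle proteins. The 7 inner root sheath keratins and 2 type II hair keratins found had 0. Most hair promoters thus lacked CTTTGAA, so the printed ones that carry it are not typical of the lists. A match describes these letters and does not show that a factor binds.

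Outside the 5 lists, 58 genes rose, of which 37 carry a gene name and 21 are predicted loci that are not named here. The named ones with the smallest p include further genes of the hair and of cornified epithelia. Lyg2, a lysozyme-like gene (chromosome 1, 37905923 to 37916493), stood at 33.9, 162 and 47.6 CPM in pre-MCS-01 and 0.0252, 0 and 0.0230 CPM in post-MCS-01. Crnn encodes cornulin, a relative of trichohyalin in the same gene cluster on chromosome 3, and stood at 110.0, 321 and 104 CPM against 1.18, 0.360 and 0.597 CPM (7.96 ± 1.18). Gprc5d, an orphan receptor known from hard keratinizing tissue, stood at 46.7, 213 and 55.3 CPM against 0.227, 0 and 0.0689 CPM (10.04 ± 1.64). In each of these genes the lowest pre-MCS-01 library exceeded the highest post-MCS-01 library many times over.

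Several of these genes are enzymes, channels or structural proteins rather than keratins. Fbp1, the gluconeogenic fructose bisphosphatase, stood at 32.0, 141 and 34.6 CPM in pre-MCS-01 and 1.39, 1.08 and 0.689 CPM in post-MCS-01 (6.04 ± 0.99). Mt4, the metallothionein of stratified epithelium, stood at 56.5, 280.1 and 51.2 CPM against 1.23, 3.48 and 2.20 CPM (5.81 ± 0.95). Capn8, a calcium-dependent protease, stood at 12.0, 31.6 and 10.1 CPM against 0, 0.0240 and 0.0459 CPM, a ratio of 714 (95% counting interval 244 to 3465). Few counts lay behind the post-MCS-01 side of Capn8 and of the next 4 genes, so each ratio has a wide interval that covers counting error only. The potassium channel gene Kcnk16 had a ratio of 312 (106 to 1516), the tight junction gene Cldn14 276 (94.1 to 1341), the actin-like gene Actbl2 892 (159.7 to 35283) and the channel gene Fam26d 2235 (618 to 18464). Kcnk16 stood at 7.51, 10.9 and 4.74 CPM in pre-MCS-01, against 1 count in each post-MCS-01 library.

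Several regulators of gene expression and of growth also rose. Barx2, a homeobox factor of skin and follicle (chromosome 9, 31846044 to 31913462), had the smallest fold of all genes that rose. It stood at 223, 226 and 121 CPM in pre-MCS-01 and 78.1, 48.7 and 59.9 CPM in post-MCS-01, a 3.05-fold difference (log2 1.61 ± 0.26, adjusted p = 0.0313). The DSCG and blank libraries held 142 to 172 CPM. Bmp8a, a ligand of the BMP family, stood at 2.71, 5.48 and 5.43 CPM against 0.252, 0.192 and 0.0918 CPM (4.65 ± 0.79), and the helix-loop-helix repressor gene Hes2 at 2.64, 5.80 and 2.99 CPM against 0.126, 0 and 0.115 CPM (5.52 ± 0.99). Tspear, a gene of hair and tooth development, stood at 4.13, 3.47 and 1.27 CPM against 0.479, 0.168 and 0.184 CPM (3.41 ± 0.60), and was not high in replicate 2. Bhlha9, another helix-loop-helix gene, was at 0 counts throughout post-MCS-01 and at least 718-fold higher.

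The transcription factors that direct matrix cells had a smaller median difference than the structural genes. All 12 had a fitted level above post-MCS-01, the median log2 fold change was 0.89, and 1 rose. That one was Msx1 (chromosome 5, 37820485 to 37824583), at 13.1, 24.4 and 12.7 CPM in pre-MCS-01 and 2.07, 0.912 and 1.88 CPM in post-MCS-01 (log2 3.37 ± 0.59, adjusted p = 0.0359). Hoxc13, which binds the promoters of hair keratin genes, stood at 76.0, 129 and 77.3 CPM against 12.1, 4.29 and 6.56 CPM (3.62 ± 0.75) and missed the threshold at an adjusted p of 0.0534. Dlx3 stood at 194, 385 and 189.9 CPM against 18.6, 41.8 and 20.8 CPM (adjusted p = 0.0583), and Msx2 at 60.5, 159 and 53.7 CPM against 5.64, 8.97 and 6.04 CPM (adjusted p = 0.0606). For 9 of the 12 the groups did not overlap, and 6 had an unadjusted p under 0.05, against 10.7% and 6.02% of all genes in that direction.

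The hair signalling list mixed ligands, receptors and inhibitors. Its 13 tested genes had a median log2 fold change of 1.50, none passed at an adjusted p under 0.05, 9 had an unadjusted p under 0.05 (6.02% of all genes in that direction) and 10 did not overlap (10.7% of all genes). Shh, the ligand that drives growth of the follicle downwards, was even within pre-MCS-01 at 11.6, 12.1 and 12.2 CPM, and stood at 0.428, 0.192 and 1.93 CPM in post-MCS-01. Its log2 fold change was 3.80 ± 0.97 (adjusted p = 0.137), and it was 3.80 without replicate 2, so this gene did not follow the excess of that library. Hhip, an inhibitor that the Shh pathway itself induces, had a log2 fold change of 2.84 ± 0.58 (adjusted p = 0.0517). The ligand gene Wnt10b stood at 10.6, 10.9 and 8.86 CPM against 2.70, 1.49 and 2.52 CPM (2.18 ± 0.48, adjusted p = 0.0691). Fgf5, the signal that ends the growth phase of hair, was also higher in each pre-MCS-01 library, at 3.48, 6.19 and 2.37 against 0.428, 0.216 and 0.184 CPM (adjusted p = 0.123).

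The dermal papilla list was divided, and the bulge stem cell list differed little. The 18 dermal papilla genes had a median log2 fold change of 0.07, close to the 0.03 of all genes, with 10 above and 8 below post-MCS-01. Of these, 1 passed as higher and none as lower. An unadjusted p under 0.05 was found for 6 that were higher, against 6.02% of all genes, and 6 lay higher without overlap, against 10.7%, while no member met either criterion in the lower direction. Corin, a protease that marks the papilla, stood at 4.55, 3.95 and 4.49 CPM against 0.479, 0.0720 and 0.528 CPM (3.58 ± 0.87, adjusted p = 0.110). Rspo2, a WNT agonist, had a log2 fold change of 3.20 ± 1.01 (adjusted p = 0.278). The 11 bulge stem cell genes had a median of 0.09 and no call in either direction. When 1 library was left out, the papilla median ranged from -0.13 to 0.26 and the bulge median from -0.14 to 0.25. Cd34, a surface marker of bulge cells that endothelium also carries, stood at 62.1, 104 and 98.7 CPM against 126, 75.7 and 151 CPM (-0.41 ± 0.32). Across the lists, then, the medians were 9.92 for Krtap genes, 8.59 for root sheath keratins, 1.50 for signals, 0.89 for matrix factors 0.07 for papilla and 0.09 for bulge. In bulk tissue, fewer cells of a type and less RNA per cell cannot be told apart.

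Pigment genes pointed the same way below the threshold. Of 12 melanocyte genes, 10 had an unadjusted p under 0.05 (6.02% of all genes) and did not overlap (10.7%), the median log2 fold change was 3.81 (3.11 without replicate 2), and none passed the adjusted threshold. Pmel, the fibril protein of pigment granules, stood at 42.8, 222 and 80.4 CPM in pre-MCS-01 and 9.98, 3.48 and 12.6 CPM in post-MCS-01 (adjusted p = 0.0545). Tyr, the first enzyme of melanin synthesis, stood at 9.30, 37.2 and 14.5 CPM against 1.54, 0.840 and 2.18 CPM (adjusted p = 0.0593). Oca2, a membrane protein of the granule, stood at 3.73, 13.1 and 7.96 CPM against 0.0756, 0.0720 and 0.230 CPM (log2 5.99 ± 1.23, adjusted p = 0.0528), and Slc45a2 at 3.43, 13.6 and 6.35 CPM against 0.403, 0.216 and 0.528 CPM (adjusted p = 0.0534). The list's summed level was 217 to 1007 CPM in pre-MCS-01, 29.6 to 82.6 in post-MCS-01, 129 to 516 in DSCG and 112 to 278 in blank. Mitf and Sox10, the lineage's transcription factors, differed less: the 2 members without an unadjusted p under 0.05 were these, with adjusted p of 0.600 and 0.789.

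**Figure D4:**
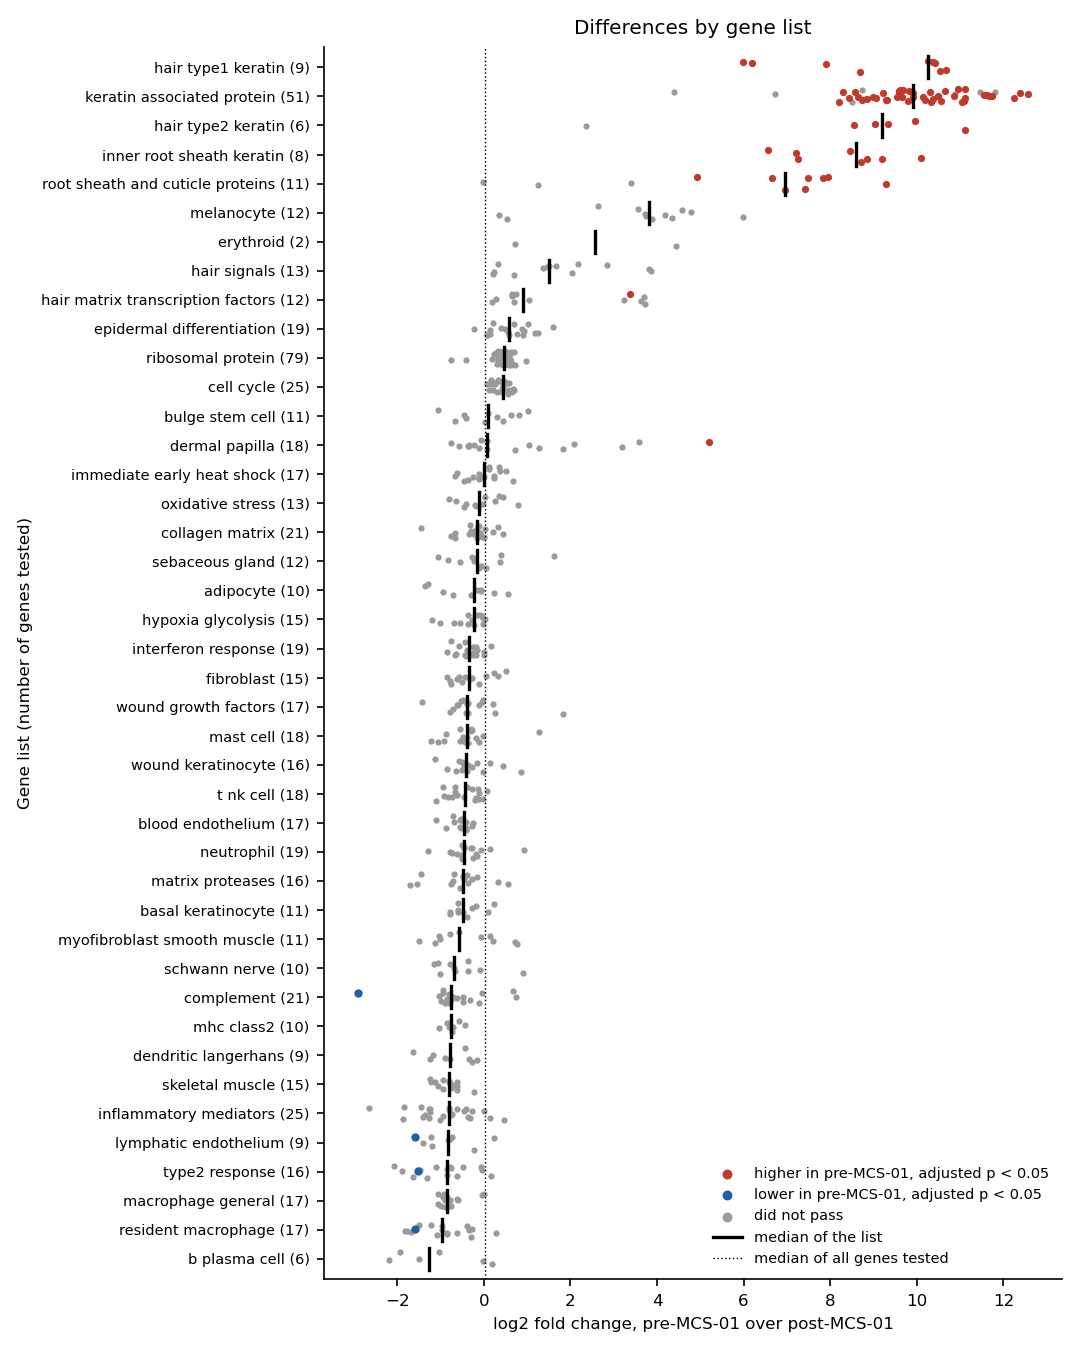
Each point is 1 gene of a list (number tested in parentheses), placed by its log2 fold change of pre-MCS-01 over post-MCS-01 and spread vertically at random within its list. Black bars mark the list's median and the dotted line the median of all genes tested (0.03). Red points, higher in pre-MCS-01 at an adjusted p under 0.05, lie in the hair lists, with 1 each among the matrix factors and the dermal papilla, and blue points, lower in pre-MCS-01, mark Lyve1 (in 2 lists), C7 and Il13ra2.

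The epidermis between follicles differed far less than the hair. Of 19 differentiation genes, 18 had a higher fitted level in pre-MCS-01 (median log2 fold change 0.58), but none passed. Ivl, the involucrin gene of the cornified envelope, had the smallest p, at 168, 139.5 and 115 CPM in pre-MCS-01 and 66.8, 77.2 and 33.9 CPM in post-MCS-01 (1.25 ± 0.35, adjusted p = 0.183). The 11 basal keratinocyte genes had a median of -0.49 (-0.28 without replicate 2) and the 16 wound keratinocyte genes -0.41, with no call. Of the 11 basal genes, 4 were lower at an unadjusted p under 0.05, against 4.2% of all genes. Lower without overlap were 2, against 7.01%, and the wound keratinocyte list had 0 by either measure. All 25 cell cycle genes had a higher fitted level (median 0.43, from 0.07 to 0.69, and 0.26 without replicate 2), with no call. In 10 of the 25 the groups did not overlap, against 10.7% of all genes, and 1 had an unadjusted p under 0.05, against 6.02%. Mki67, the proliferation marker, stood at 112, 131 and 125 CPM against 75.4, 87.8 and 77.8 CPM, groups that did not overlap and differed by a log2 of 0.61 ± 0.31 (adjusted p = 0.535). The 12 sebaceous gland genes had a median of -0.17 that had no steady sign. It ranged from -0.60 to 0.17 when 1 library was left out, and was -0.98 with library quality weights in limma-voom.

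Only 3 genes were lower in pre-MCS-01 at the threshold. Lyve1, a hyaluronan receptor of lymphatic vessels and of tissue-resident macrophages (chromosome 7, 110850607 to 110863239), stood at 8.65, 12.3 and 9.30 CPM in pre-MCS-01 and 26.3, 24.3 and 40.5 CPM in post-MCS-01. It was 3.01-fold lower (log2 -1.59 ± 0.23 SE, adjusted p = 0.0313), and the DSCG and blank libraries lay between the groups at 14.5 to 17.2 CPM. C7, a component of the membrane attack complex (chromosome 15, 4988762 to 5063740), stood at 6.64, 4.01 and 7.62 CPM against 38.4, 26.6 and 72.8 CPM, 7.54-fold lower (log2 -2.91 ± 0.48, adjusted p = 0.0313), with 12.7 to 50.5 CPM in the other 6 libraries. Il13ra2, a decoy receptor of interleukin 13 (chromosome X, 147383476 to 147429192), stood at 0.820, 1.42 and 1.04 CPM against 3.15, 3.38 and 2.82 CPM, 2.85-fold lower (log2 -1.51 ± 0.28, adjusted p = 0.0383). For all 3 the groups did not overlap (7.01% of all genes in that direction). The same held for all 134 calls, so it adds no support for these 3. Without pre-MCS-01 replicate 2 the log2 fold changes were -1.76, -2.69 and -1.74 (adjusted p = 0.0682, 0.0950 and 0.0700).

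Macrophage genes tended to the same side with few calls. Of 17 genes of resident and alternatively activated macrophages, 16 had a lower fitted level in pre-MCS-01, 9 had an unadjusted p under 0.05 (4.2% of all genes in that direction) and 1 passed, Lyve1. The median log2 fold change was -0.97. Mrc1, the mannose receptor, stood at 36.3, 42.9 and 80.1 CPM in pre-MCS-01 and 149, 99.6 and 201 CPM in post-MCS-01 (-1.50 ± 0.36, adjusted p = 0.104). Cd163, the scavenger receptor for haemoglobin, stood at 40.0, 25.8 and 37.7 CPM against 95.3, 119 and 152 CPM (-1.82 ± 0.46, adjusted p = 0.135), and Folr2 had a log2 fold change of -0.98 ± 0.28 (adjusted p = 0.196). In all 3 genes every pre-MCS-01 library lay below every post-MCS-01 library, but they were named for their small p. Of the 17 genes of the list, 8 lay lower without overlap, against 7.01% of all genes. In the other direction 1 lay higher without overlap, against 10.7%.

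General macrophage genes gave a similar median of -0.86, with 7 of 17 lower at an unadjusted p under 0.05 (4.2% of all genes) and none passing. Cd68, a lysosomal protein of macrophages, stood at 49.6, 50.1 and 78.4 CPM against 119, 82.9 and 171 CPM (-1.07 ± 0.31, adjusted p = 0.217), and Fcgr3, an antibody receptor, stood at 41.6, 27.6 and 46.0 CPM against 66.9, 76.9 and 86.1 CPM (adjusted p = 0.130). The 10 MHC class II genes all had a lower fitted level, with a median of -0.77 and none passing. An unadjusted p under 0.05 was found for 4 of them, against 4.2% of all genes, and 2 did not overlap, against 7.01%. The 9 dendritic cell genes had a median of -0.78. Their members with the smallest p were Itgax (adjusted p = 0.207) and Ccr7, the receptor that guides dendritic cells to lymph nodes (adjusted p = 0.199).

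The list of type 2 responses, the arm of immunity driven by interleukins 4 and 13, had a median of -0.85 over 16 genes. Of these, 8 were lower at an unadjusted p under 0.05 (4.2% of all genes) and 1 passed, Il13ra2. Chil3, a chitinase-like protein of alternatively activated macrophages, stood at 6.81, 6.05 and 12.2 CPM in pre-MCS-01 and 16.4, 53.8 and 36.2 CPM in post-MCS-01 (-2.08 ± 0.56, adjusted p = 0.165). The DSCG and blank libraries held 1.31 to 6.28 CPM. Il13 itself was at a low level, at 0.0497, 0.256 and 0.322 CPM against 0.907, 0.816 and 0.620 CPM (adjusted p = 0.318). In pre-MCS-01 replicate 1 it lay below the 0.0746 CPM that 3 counts make there. The chemokine gene Ccl22 had a log2 fold change of -1.10 ± 0.31 (adjusted p = 0.191). Il33, an alarm signal of damaged epithelium, belongs to the list of inflammatory mediators and not to this one. It stood at 40.9, 54.5 and 69.0 CPM against 109, 172 and 153 CPM (-1.40 ± 0.48, adjusted p = 0.331).

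Other genes named for their small p among those lower in pre-MCS-01 did not pass. Alox5, the enzyme that starts leukotriene synthesis, stood at 11.7, 11.4 and 12.4 CPM in pre-MCS-01 and 22.8, 33.6 and 28.8 CPM in post-MCS-01 (-1.26 ± 0.28, adjusted p = 0.0697). Alox15 stood at 0.845, 0.625 and 1.15 CPM against 5.29, 2.09 and 2.66 CPM (adjusted p = 0.116). Serpina3n, a serine protease inhibitor of the acute phase, stood at 128, 130.3 and 172 CPM against 512, 216 and 579 CPM (adjusted p = 0.135), and its neighbours Serpina3m and Serpina3c had adjusted p of 0.0784 and 0.107. These serpin genes are related in sequence, and whether reads were split among them was not tested. Il31ra, a receptor chain for the itch cytokine interleukin 31, stood at 0.249, 0.568 and 0.345 CPM against 2.57, 0.888 and 2.23 CPM (adjusted p = 0.116).

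**Figure D5:**
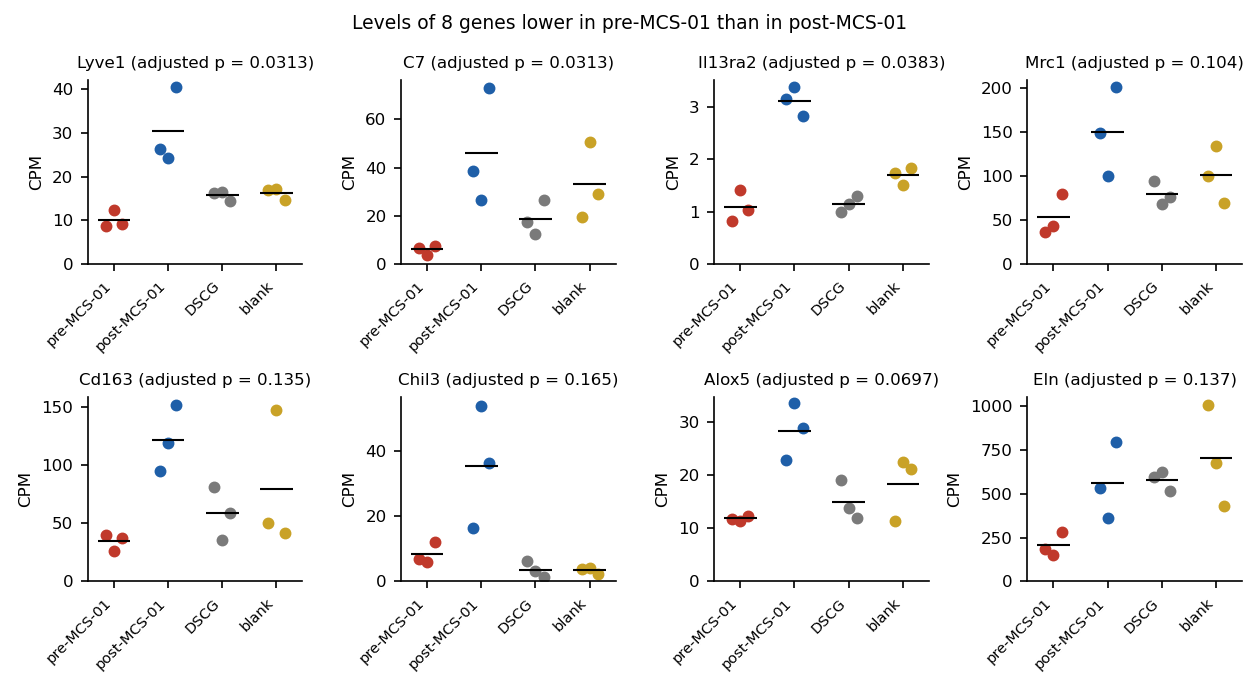
Points are CPM in single libraries for 8 genes lower in pre-MCS-01, by group, with a line at each group mean. The y axes start at 0. For each gene the 3 pre-MCS-01 points lie below the 3 post-MCS-01 points, and Lyve1, C7 and Il13ra2 passed an adjusted p under 0.05 while the other 5 did not.

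Complement genes had a median of -0.77 over 21 tested, with 7 lower at an unadjusted p under 0.05 (4.2% of all genes) and 1 higher (6.02%). C1qa, C1qb and C1qc are also in the list of general macrophage genes, so these lists are not separate. C7 passed, and C4b stood at 155, 119 and 219 CPM in pre-MCS-01 and 339.9, 239.9 and 431 CPM in post-MCS-01 (adjusted p = 0.241). In the matrix, Eln, the elastin gene, stood at 185, 151 and 285 CPM against 533, 363 and 793 CPM (-1.44 ± 0.37, adjusted p = 0.137), while the 21 collagen and matrix genes had a median of -0.16 that had no steady sign. It was 0.17 without pre-MCS-01 replicate 1, 0.22 without replicate 2 and -1.24 without replicate 3, 0.06 without post-MCS-01 replicate 3, and -0.94 with library quality weights in limma-voom. Mmp3, a protease of wound margins, had a log2 fold change of -1.45 ± 0.45 (adjusted p = 0.256). Fibroblast genes (median -0.35), matrix proteases (-0.49), wound growth factors (-0.39) and smooth muscle genes (-0.58) held no call. Fgf22, a fibroblast growth factor found in hair follicles, went the other way within its list, at 11.7, 20.8 and 10.9 CPM against 3.68, 6.43 and 2.07 CPM (adjusted p = 0.107).

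No mast cell gene passed, although mast cells are the target of a stabilizer. Of 18 mast cell genes, 17 had a lower fitted level in pre-MCS-01 (median log2 fold change -0.40, lowest -1.22). An unadjusted p under 0.05 was found for 2 that were lower (4.2% of all genes) and 1 that was higher (6.02%). Lower without overlap were 2 (7.01% of all genes), and higher without overlap 1 (10.7%). The secreted proteases overlapped between the groups. Cpa3 stood at 13.2, 14.1 and 20.4 CPM in pre-MCS-01 and 23.9, 11.2 and 26.3 CPM in post-MCS-01 (-0.36 ± 0.31, adjusted p = 0.701). Mcpt4, the chymase of connective tissue mast cells, stood at 41.4, 54.6 and 58.8 CPM against 68.0, 28.2 and 95.6 CPM (-0.31 ± 0.39, adjusted p = 0.795), and the tryptase gene Tpsb2 had a log2 fold change of -0.12 ± 0.33. Kit, the growth factor receptor that mast cells share with melanocytes, was the one gene of the list above post-MCS-01, at 14.5, 23.7 and 23.5 CPM against 9.37, 6.21 and 10.2 CPM (1.26 ± 0.41, adjusted p = 0.291). Hpgds, the prostaglandin D synthase, stood at 12.1, 8.44 and 10.4 CPM against 17.5, 22.2 and 19.3 CPM (-0.93 ± 0.36, adjusted p = 0.392). The list's summed level was 197 to 339 CPM in pre-MCS-01 and 266 to 390.0 CPM in post-MCS-01. Stabilizers act on the release of granules, which transcript counts do not measure.

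The remaining immune lists held no call. Neutrophil genes had a median of -0.47 and a summed level of 4712 to 7685 CPM in pre-MCS-01 and 5387 to 11782 CPM in post-MCS-01. The DSCG libraries held 120 to 4508 CPM and the blank libraries 713 to 1507 CPM. Inflammatory mediators had a median of -0.81, with 3 of 25 lower at an unadjusted p under 0.05 (4.2% of all genes), and the median ranged from -1.28 without post-MCS-01 replicate 1 to -0.30 without replicate 2 of that group. Cxcl1, a chemokine that draws neutrophils, stood at 1.94, 3.24 and 11.1 CPM against 19.1, 20.1 and 20.2 CPM (adjusted p = 0.482). Interferon response genes had a median of -0.35, T and NK cell genes -0.43 and B and plasma cell genes -1.28, the last over 6 genes at very low level. With library quality weights in limma-voom the neutrophil median turned to 0.82 and the interferon median to 0.18. Single libraries turned them too: leaving out post-MCS-01 replicate 2 gave a neutrophil median of 0.27, and leaving out its replicate 3 an interferon median of 0.40.

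Among the other tissues in a wound, all 17 blood endothelium genes had a lower fitted level (median -0.46, none with an unadjusted p under 0.05). Leaving out pre-MCS-01 replicate 2 gave a median of -0.21, and leaving out its replicate 3 one of -0.97. Lymphatic genes had a median of -0.83, with Lyve1 the only call. All 15 skeletal muscle genes had a lower fitted level (median -0.80), and their summed level was 3981 to 6051 CPM in pre-MCS-01 and 5712 to 12662 CPM in post-MCS-01, ranges that overlapped. Schwann cell genes had a median of -0.69 and adipocyte genes -0.23, the latter -0.63 without pre-MCS-01 replicate 2 and -0.01 without replicate 3. Hypoxia and glycolysis (-0.24), immediate early and oxidative stress genes (-0.11) held no call, and the median of the immediate early list was within 0.01 of 0. The 79 ribosomal protein genes had a median of 0.47, or 0.09 without replicate 2.

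One further gene stood apart from its list. Slc4a1, the anion exchanger of red blood cells and kidney, stood at 7.73, 8.72 and 6.72 CPM in pre-MCS-01 and 0.277, 0.504 and 0.275 CPM in post-MCS-01 (log2 4.44 ± 0.92, adjusted p = 0.0545). The globin genes of its list were listed at 0 in all 12 libraries, so they say nothing about blood content, and the only other member tested, the haem enzyme Alas2, overlapped between the groups at 8.58, 4.89 and 17.6 CPM against 5.77, 6.02 and 7.23 CPM.

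The calls depended on single libraries: without pre-MCS-01 replicate 1, 130 genes were higher and 1 lower, and without replicate 3, 46 and 2. Without post-MCS-01 replicate 1, 2 or 3 no gene passed in edgeR (lowest adjusted p = 0.141, 0.141 and 0.230, with 1210, 1809 and 1040 genes at an unadjusted p under 0.05), and limma-voom called 1 gene. With 3 libraries against 3, an exact permutation test of a single gene cannot give a two-sided p below 0.1.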

How the data were processed

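RNA from back-skin wounds was sequenced, with 1 library per mouse. Per the labels' protocols, wounds were flash frozen, total RNA was extracted with a QIAGEN miRNeasy kit and 1 µg entered library preparation with the Illumina TruSeq RNA kit. The deposited values are raw counts of reads for 24062 gene symbols, in 1 file per library. The 5 summary lines at the end of each file were left out. Per the submitters' processing notes, the tools were HTSeq, TopHat2, Bowtie2, FastQC and limma, and the build was mm10. Tool versions, the gene annotation and the strand setting are not given in the sources used here.

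The default filterByExpr filter kept 16267 genes. TMM scaling factors were 0.905 to 1.07. Differences were tested two-sided in R 4.3.3 by the quasi-likelihood method of edgeR 4.0.16, fitted to all 12 libraries with 1 coefficient for each group, so that the spread was estimated from 4 groups of 3. The Benjamini-Hochberg adjustment ran over all genes tested, with a threshold of 0.05 whatever the fold. The common biological coefficient of variation came to 0.347. Adjusted p in the text come from this model unless another tool is named. Errors of log2 fold changes are standard errors (SE), and those of levels are standard deviations (SD). A difference against a group with no count is a lower bound from 3 counts over the group, and one against 1 to 3 counts is a ratio with an exact 95% Clopper-Pearson interval. Replicate numbers follow accession order and pair nothing.

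Symbols were matched to GENCODE on GRCm38, the assembly that mm10 names, for coordinates and exon lengths (95.4% of genes tested had a length). The steps were tested on simulated data. The members and the 42 gene lists were chosen with earlier results of these data known. Genes were named by rule: up to 15 with the largest fold in each direction among those that passed with a mean of at least 1 CPM, up to 25 with the smallest p among those that passed outside the Krt symbols, the 25 with the smallest p among genes lower in pre-MCS-01, and up to 4 with the smallest p of each list, beside common cell type markers. Predicted genes were not named. Values are printed for part of the genes so chosen, and the others enter through the counts and medians of their lists. For 1 of them nothing is reported here. Krt84, Krt75, Tgm3, Psors1c2, Mitf and Sox10 were named after their values were seen, as the list members that did not pass. Alternatives were RLE and total-count scaling, no filter, DESeq2 1.42.0, limma-voom (limma 3.58.1) with and without library quality weights, a fit of the 6 libraries, edgeR's newer quasi-likelihood method, an exon-length covariate, and leaving out libraries.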

Additional observations from a re-analysis of the deposited data

How the results depend on the processing

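No paired analysis was possible because the labels give the groups no shared replicate numbers, and all mouse numbers differ. The main counts were 131 genes higher and 3 lower in pre-MCS-01. RLE scaling gave 130 and 3, total-count scaling 125 and 3, no filter on low counts 156 and 3, and edgeR's newer quasi-likelihood method 160 and 4. A fit of the 6 libraries alone gave 190 and 7, with 121 of the 134 calls among them. DESeq2 gave 331 (2.04% of genes) and 97 (0.597%), and limma-voom with library quality weights 1816 and 2002, both with all 134 calls among them. Limma-voom without weights gave 1 and 0, and the exon-length covariate in edgeR 1 and 0. With that covariate the median log2 fold changes of the hair lists stayed close: 9.40 for Krtap genes (9.92 without it), 9.93 for type I hair keratins (10.25) and 8.35 for inner root sheath keratins (8.59). Leaving out 1 of the 6 libraries gave 0 to 130 genes higher and 0 to 2 lower: 46 and 2 without pre-MCS-01 replicate 3, 130 and 1 without replicate 1, and none without replicate 2 or without any post-MCS-01 library. Without the 3 libraries short of long transcripts edgeR called 0 and 0, with 1065 genes at an unadjusted p under 0.05 and a lowest adjusted p of 0.257. Why the counts moved was not tested.

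Of the genes followed singly, 5 changed sign under an alternative, and none of them was called there. Library quality weights turned the log2 fold change of Il1r2 to 0.55 and that of Thbs1 to 0.078. When 1 library was left out, Thbs1 ranged from -1.20 to 0.10 (positive without post-MCS-01 replicate 2). Over the same fits Gbp3 ranged from -1.08 to 0.021, Gzma from -1.38 to 0.11 and Cd79a from -2.04 to 0.12, each positive without post-MCS-01 replicate 3. Counts of 0 in the post-MCS-01 libraries limit how closely the largest folds are known.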

Other observations

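The 3 post-MCS-01 libraries differed among themselves in their hair gene counts. Of the 86 hair genes, 12 had no count in replicate 1, 51 in replicate 2 and 22 in replicate 3, and replicate 1 was the highest of its group in 66. Replicate 2 nevertheless held the largest share of counts in hair genes of the 3, at 0.0713%. Its Tgm3 level, at 272 CPM against 113 and 110 CPM in the other 2, was the highest of the group. The list of other root sheath and cuticle proteins, which holds Tgm3 and Psors1c2, summed to 723 CPM in replicate 2. Each other hair list summed to 5.97 CPM or less in that library. Psors1c2 and Tgm3, whose groups overlapped, had the highest post-MCS-01 means of the hair genes, at 247 and 39.9 CPM per kb.

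Outside the comparison, DSCG replicate 1 was the lowest of the 9 other libraries in 122 of the 131 genes that were higher in pre-MCS-01. It still lay above all 3 post-MCS-01 libraries in nearly all of them, since in 129 of the 131 the post-MCS-01 libraries were below all 9 others. Its share of counts in hair genes, 0.286%, lay above the 0.0713% of the highest post-MCS-01 library.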
